A study of Mus musculus with 2 samples.

Results

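The 36 lysosomal genes described here were chosen by symbol from the 19070 genes of the files, and each had at least 1 UMI (unique molecular identifier, a count of captured molecules) in both sections. They comprised 9 proteases, 8 glycosidases, 8 genes of lipid turnover, 5 membrane proteins, 4 parts of the proton pump and 2 regulators. The data were Visium HD spatial transcriptomes, in which probes hybridised to transcripts in a fixed tissue section are counted in square bins of 16 µm. There was 1 coronal brain section at 3 days and 1 at 28 days after injury by CCI (controlled cortical impact), a blow to the exposed cortex that models head trauma, here delivered over the right parietal lobe. Both groups were male C57Bl6 mice, 3 months old when injured, perfusion-fixed and embedded in paraffin, and no other allele or agent was given in the labels. No sham-operated section was analysed here, so the opposite side, which belongs to the same injured brain, served as the reference.

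Lysosomes are acid compartments in which proteins, sugars and lipids taken up from outside or delivered by autophagy are broken down. The vacuolar ATPase pumps protons into them, the hydrolases work at the low pH this gives, and membrane proteins such as LAMP1 and LAMP2 shield the limiting membrane. In injured brain, microglia and macrophages carry many lysosomes as they clear debris, whereas neurons use the vacuolar ATPase also to fill synaptic vesicles.

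Many lysosomal genes are known targets of TFEB, a transcription factor that binds the CLEAR element around the E-box CACGTG, so the promoters of the members were searched for the element and its core. Promoters were taken from RefSeq on GRCm38.p6 as the 250 bases before to the 50 after a start, and 30 of the 36 members matched, with 35 promoters among them. The motif TCACGTGA, which reads the same on both strands and lies within the CLEAR element of 10 bases, was found in 6 of the 35 promoters (17.1%) against 0.974% of all 32851 promoters. Of the 17524 promoters of measured genes, from which the members were chosen, 1.40% held it. Among promoters of 46 other lysosomal genes it was in 12.7%. The 6 promoters of members belonged to Ctsa, Ctsd, Gla, Mcoln1, Cln3 and Atp6v1a. The shorter CACGTG, nested in both longer motifs, was in 10 of 35 (28.6%) against 7.15% of all promoters, and the full CLEAR element was in 1, that of Cln3, against 0.326%. The 4 promoters printed here contrast members that hold TCACGTGA or lack it with members that were higher, lower or level in injured tissue. They are Ctsd on the minus strand at chr7:142387778-142388077, Atp6v1a on the minus strand at chr16:44139210-44139509, Mcoln1 on the plus strand at chr8:3500269-3500568 and Ctss on the plus strand at chr3:95526536-95526835, with each CACGTG or TCACGTGA in capitals.
Ctsd: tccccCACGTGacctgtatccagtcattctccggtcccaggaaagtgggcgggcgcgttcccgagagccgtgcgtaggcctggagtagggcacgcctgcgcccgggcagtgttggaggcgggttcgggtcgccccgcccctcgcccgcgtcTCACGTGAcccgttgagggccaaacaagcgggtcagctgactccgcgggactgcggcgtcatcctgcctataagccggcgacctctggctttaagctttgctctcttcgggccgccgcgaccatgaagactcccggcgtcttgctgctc
Atp6v1a: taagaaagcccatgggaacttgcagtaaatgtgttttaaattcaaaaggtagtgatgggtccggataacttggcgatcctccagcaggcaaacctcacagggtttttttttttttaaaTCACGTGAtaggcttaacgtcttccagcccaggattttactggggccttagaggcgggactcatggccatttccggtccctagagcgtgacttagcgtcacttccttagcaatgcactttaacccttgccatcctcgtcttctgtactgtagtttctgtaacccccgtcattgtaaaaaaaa
Mcoln1: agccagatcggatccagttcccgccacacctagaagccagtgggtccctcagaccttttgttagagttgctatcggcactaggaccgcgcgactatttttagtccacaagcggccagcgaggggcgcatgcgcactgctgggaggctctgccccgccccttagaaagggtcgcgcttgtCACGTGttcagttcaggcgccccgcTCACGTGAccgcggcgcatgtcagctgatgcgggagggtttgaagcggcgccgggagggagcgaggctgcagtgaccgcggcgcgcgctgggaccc
Ctss: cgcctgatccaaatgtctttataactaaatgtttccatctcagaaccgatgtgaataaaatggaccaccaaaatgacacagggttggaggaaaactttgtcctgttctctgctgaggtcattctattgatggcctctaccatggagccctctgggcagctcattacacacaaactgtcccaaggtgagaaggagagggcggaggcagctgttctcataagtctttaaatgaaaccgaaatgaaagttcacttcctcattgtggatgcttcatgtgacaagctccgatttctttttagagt
In Ctsd the TCACGTGA began at position -99 from the start, in Atp6v1a at -132 and in Mcoln1 at -46. The Ctss window held none of the letters searched. A match is a description of the sequence, and binding was not measured.

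The 3-day section held 120615873 UMIs in 121967 bins (median 836 per bin) and the 28-day section 82422389 in 105589 bins (median 596). The members made up 0.521% and 0.552% of all UMIs. Values are CPM, the count of a gene divided by all UMIs of the area named and multiplied by 1000000, differences are log2 ratios of CPM, and the values in parentheses after a ratio are its 95% interval, which covers counting error only. With 1 section per time point there was no test, no spread between animals could be estimated, and animal, section and time cannot be told apart. A member was called past a fixed 2-fold, and the share of all genes past the same 2-fold is given beside the counts of a comparison. The injured side reached only 2.08 mm from the border at 3 days, at the edge of the array, and 3.84 mm at 28 days, against 4.62 and 2.86 mm on the opposite side.

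Over whole sides, the sum of the 36 members was higher on the injured side at both times. The injured side had 5692 CPM of them at 3 days against 4994 CPM opposite, a log2 ratio of 0.19 (0.18 to 0.20), beside a median of 0.14 over all genes and a ratio of 0.05 with TMM scaling. At 28 days the values were 6370 and 4819 CPM, a log2 ratio of 0.40 (0.39 to 0.41). Much of that sum was not hydrolase. Atp6v1b2, Atp6v1a and Atp6ap1, which encode 2 subunits and an accessory protein of the vacuolar ATPase, held 50.8% of the members' UMIs at 3 days and 45.4% at 28 days. The sum of the other 33 members was 3243 against 2256 CPM at 3 days and 3854 against 2315 CPM at 28 days, log2 ratios of 0.52 (0.51 to 0.53) and 0.74 (0.72 to 0.75). At least 2-fold higher on the injured side were 7 of 36 members at 3 days (10.5% of all genes) and 11 at 28 days (6.43% of all genes), and at least 2-fold lower were 0 at both times (2.12% and 0.582% of all genes). The 7 at 3 days were Ctsc, Ctsd, Ctsh, Ctss, Gusb, Atp6v0d2 and Grn, and all 7 were also past 2-fold at 28 days, joined by Ctsl, Hexa, Naglu and Npc2. Atp6v0d2 rested on 12 UMIs against 8 at 3 days.

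The members were highest in a limited area of the injured side. A lesion zone was drawn from Lgals3, Cd52, Tyrobp, Fcer1g and Aif1, none of them a member, as the injured-side tiles of 64 µm in which these genes exceeded the 99th percentile of the opposite side. It held 490 tiles (18.9% of the injured side) at 3 days and 975 tiles (29.9%) at 28 days, and its reflection across the border was the reference, called the mirror area. The percentile stood at 896 CPM of the 5 genes at 3 days and at 538 CPM at 28 days. The sizes of the zones at the 2 times thus rest on unlike cutoffs and do not measure growth. At 3 days 28 of the zone's tiles lay at the array edge. Because those 5 genes mark microglia and macrophages, the zone is where such cells are dense. A member made by the same cells is placed higher there by that choice. Injured-side tissue outside the zone lacks those tiles, whereas the opposite side was not cut by these genes. For such members, ratios of injured-side tissue outside the zone are thus placed lower by the same choice. Over the 452 and 952 zone tiles of at least 1600 UMIs, the 33 members had a median of 5926 CPM in the zone at 3 days (quartiles 4616 and 7705) and 7831 CPM at 28 days (quartiles 5112 and 12177), against medians of 2228 and 2308 CPM over the tiles of the opposite side.

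**Figure D1:**
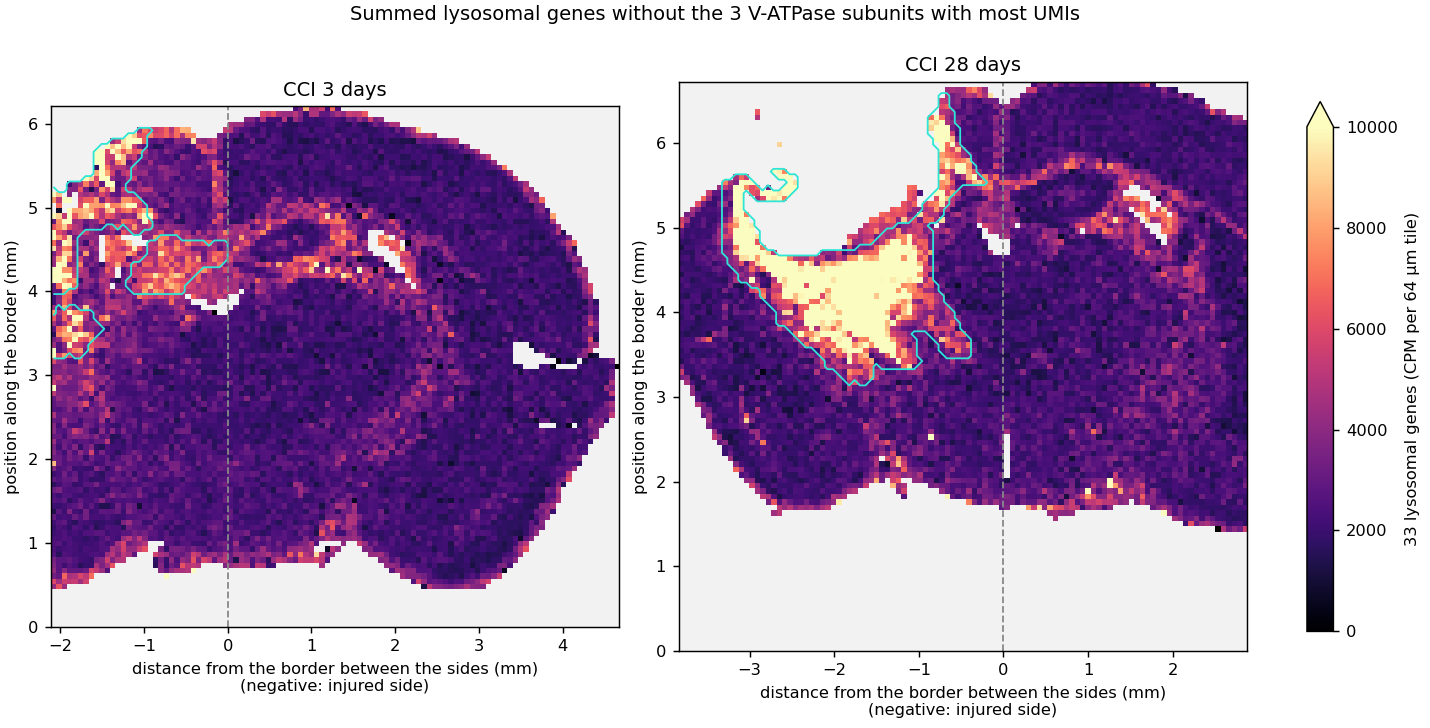
Summed CPM of the 33 lysosomal genes in each 64 µm tile of at least 400 UMIs of the 3-day section (left) and the 28-day section (right), drawn at their position in mm, with the border between the sides dashed and the lesion zone outlined. Bright tiles fill the outline at both times, in 3 patches with 28 tiles at the array edge at 3 days and in 1 patch around a gap in the tissue at 28 days, and bands of moderate level also cross the opposite side.

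In the zone, the sum of the 36 members was 7693 CPM against 5431 CPM in the mirror area at 3 days and 11086 against 4761 CPM at 28 days, log2 ratios of 0.50 (0.48 to 0.52) and 1.22 (1.202 to 1.236). Without the 3 proton pump genes the ratios were 1.22 (1.19 to 1.25) and 1.99 (1.97 to 2.01), or 2.33-fold and 3.97-fold. The median member had a ratio of 1.03 at 3 days, over the 35 with at least 20 UMIs, and 1.42 at 28 days over all 36, beside 0.10 and 0.00 over all genes. At least 2-fold higher were 19 of 35 members at 3 days (17.7% of all genes) and 25 of 36 at 28 days (15.9% of all genes). Atp6v0d2, the member counted at 28 days only, met the minimum of UMIs only through the zone. At least 2-fold lower were 2 at 3 days (11% of all genes) and 0 at 28 days (6.61% of all genes). Bins of the zone were shallower than those of the mirror area, with means of 541 and 939 UMIs at 3 days and 527 and 644 at 28 days. Counted per bin in place of CPM, the sum of the 36 members was lower in the zone at 3 days, with a log2 ratio of -0.29, and higher at 28 days, with 0.93, and 7 of 35 members were at least 2-fold higher at 3 days (7.89% of all genes on the same scale). On that scale Glb1, Man2b1, Psap, Gm2a, Ppt1 and Scarb2 also turned from above to below 0 at 3 days. In bins that pool several cells, more or fewer cells of a type and more or less RNA per cell cannot be told apart. Zone and mirror area also differed in tissue, since 282 of 490 zone tiles and 106 mirror tiles carried white matter genes at 3 days, and 472 of 975 and 239 did at 28 days.

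The proteases took the largest share of the members' UMIs in the zone. As a group they went from 721 CPM in the mirror area to 2633 CPM in the zone at 3 days and from 561 to 4536 CPM at 28 days, 3.65-fold and 8.08-fold. They made up 13.3% of the members' UMIs in the 3-day mirror area and 34.2% in the zone, and at 28 days 11.8% and 40.9%. Ctsd, the aspartic protease cathepsin D, had 704 CPM in the zone and 132 CPM in the mirror area at 3 days, and 1341 against 79.2 CPM at 28 days. Its log2 ratios were 2.42 (2.31 to 2.53) and 4.08 (3.971 to 4.195), so the interval at 28 days lay wholly above that at 3 days. Ctss, a cysteine protease of phagocytes that cleaves the invariant chain, had 304 against 65.2 CPM at 3 days and 980 against 51.4 CPM at 28 days, with ratios of 2.22 (2.06 to 2.38) and 4.25 (4.11 to 4.39). Ctsh, an aminopeptidase, had 90.4 against 25.7 CPM and then 185 against 11.2 CPM, with ratios of 1.82 (1.55 to 2.09) and 4.03 (3.74 to 4.35). For all 3 genes the zone level was higher and the mirror level lower at 28 days. Ctsb, the cathepsin with both endopeptidase and exopeptidase activity, had 895 against 248 CPM and 1179 against 207 CPM, 3.60-fold and 5.70-fold.

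Ctsc, the dipeptidyl peptidase that activates granule serine proteases, departed from this. Its zone level was lower at 28 days (64.2 CPM) than at 3 days (101 CPM), while its ratio was larger, 3.31 (2.92 to 3.75) against 2.20 (1.92 to 2.48), with a mirror level of 22.0 CPM at 3 days and 6.42 CPM at 28 days. Ctsl, another cysteine protease, had ratios of 1.60 and 2.55, and Ctsa, the carboxypeptidase that protects the sialidase and beta-galactosidase complex, had 1.29 and 2.00. Tpp1, the tripeptidyl peptidase lost in a childhood ceroid lipofuscinosis, was below 2-fold at 3 days (0.85) and above it at 28 days (1.37). Ctsk, the collagenolytic cathepsin of osteoclasts, rested on 16 UMIs against 8 at 3 days and 25 against 10 at 28 days, and its intervals (0.53 to 3.27 and 0.39 to 2.72) did not separate the times.

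**Figure D2:**
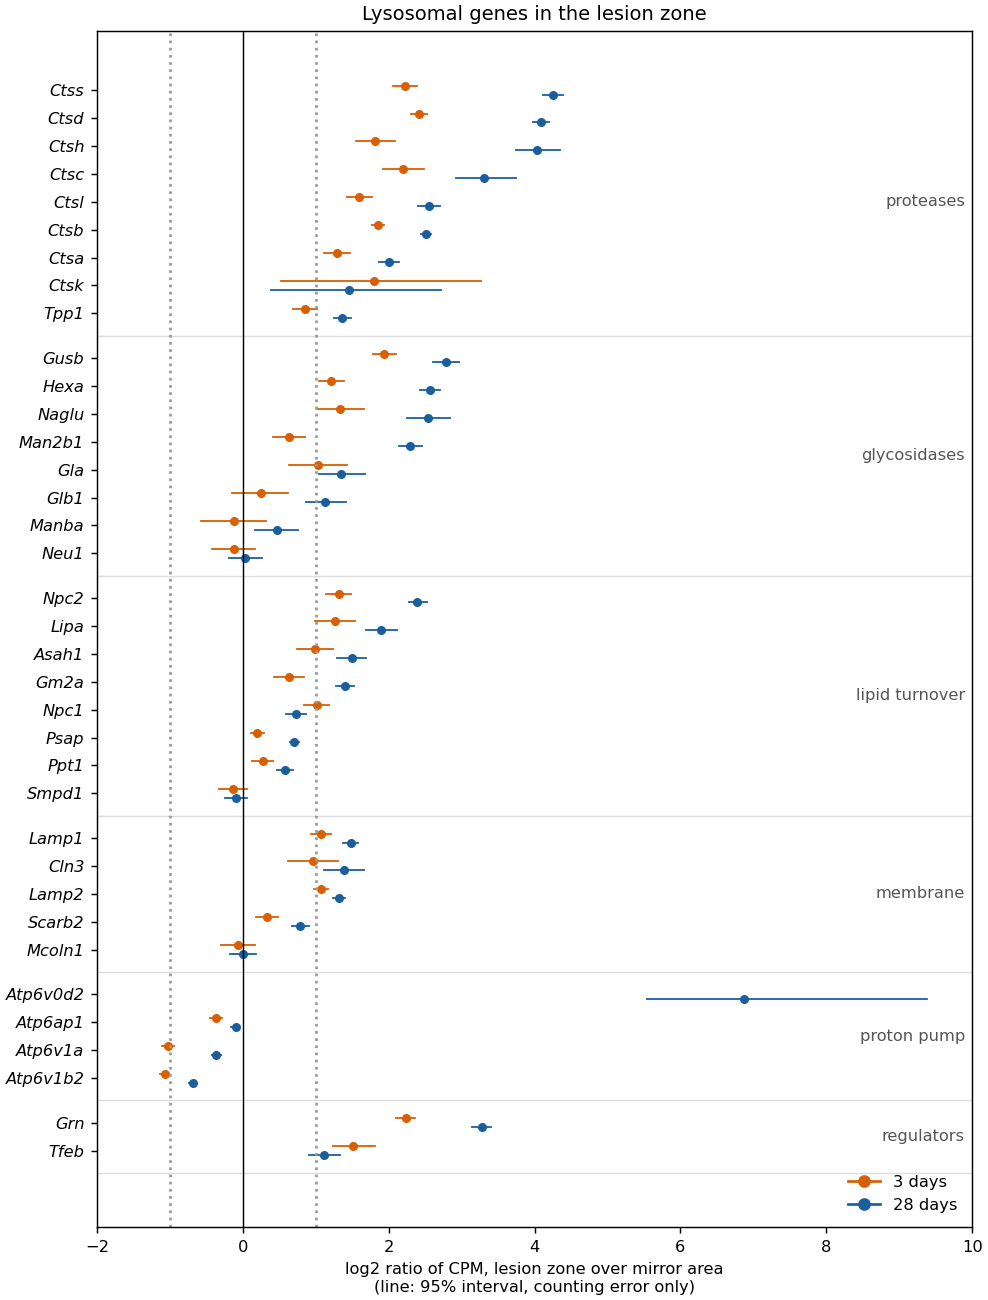
Log2 ratio of CPM in the lesion zone over the mirror area for each lysosomal gene (vertical axis, grouped by role) at 3 days (orange) and 28 days (blue), with 95% intervals for counting error as lines and 2-fold as dotted lines. Ctsd, Ctss and Ctsh lie above 4 at 28 days, Atp6v1b2, Atp6v1a and Atp6ap1 lie below 0 at both times, and Atp6v0d2 is drawn at 28 days only, since it had 5 UMIs in all at 3 days.

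Among the glycosidases, 4 of 8 were at least 2-fold higher in the zone at 3 days (17.7% of all genes) and 6 at 28 days (15.9% of all genes). Gusb, beta-glucuronidase, had the highest ratios of them, with 263 against 68.7 CPM at 3 days and 247 against 35.98 CPM at 28 days, ratios of 1.94 (1.78 to 2.10) and 2.78 (2.61 to 2.96). Its level in the zone thus hardly differed between the sections, and the mirror level was lower at 28 days. Hexa, the alpha chain of hexosaminidase, had 171 against 74.1 CPM and then 328 against 55.3 CPM. Man2b1, lysosomal alpha-mannosidase, showed the largest step, from 80.6 against 51.9 CPM at 3 days (0.63, 0.41 to 0.86) to 217 against 44.2 CPM at 28 days (2.29, 2.14 to 2.46). Naglu, which removes N-acetylglucosamine from heparan sulfate, had ratios of 1.33 and 2.53, Gla, alpha-galactosidase, 1.03 and 1.35, and Glb1, beta-galactosidase, 0.24 and 1.13. Neu1, the lysosomal sialidase, had 38.2 against 41.5 CPM and 38.5 against 37.6 CPM, and its intervals included 0 at both times. Manba, beta-mannosidase, was at -0.12 (-0.58 to 0.32) at 3 days and 0.46 (0.17 to 0.75) at 28 days. The group therefore ranged from level to 6.87-fold, and its members did not move as a block.

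The lipid genes split in a similar way. Npc2, which hands cholesterol to the lysosomal membrane, had 177 against 71.3 CPM at 3 days and 401 against 76.3 CPM at 28 days, ratios of 1.31 (1.14 to 1.48) and 2.39 (2.27 to 2.52). Npc1, its membrane partner, had 153 against 76.0 CPM and then 132 against 79.6 CPM, ratios of 1.01 (0.84 to 1.18) and 0.73 (0.59 to 0.87). The pair thus differed at 28 days, when the intervals of Npc2 and Npc1 lay far apart. Lipa, the acid lipase that frees cholesterol from its esters, had ratios of 1.26 and 1.89. Gm2a, the activator that presents ganglioside GM2 to hexosaminidase, had 0.64 and 1.40, and Asah1, acid ceramidase, 0.99 and 1.49. Psap, the precursor of the saposins, had 452 against 395 CPM at 3 days and 662 against 406 CPM at 28 days (0.20 and 0.71). Ppt1, which strips palmitate from proteins, had 0.27 and 0.58. Smpd1, acid sphingomyelinase, had 88.9 against 97.8 CPM and 85.8 against 91.7 CPM, with intervals that included 0.

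Of the membrane proteins, Lamp1 and Lamp2 were both 2.10-fold higher at 3 days, each with a ratio of 1.07. At 28 days Lamp1 had 342 against 123 CPM (1.48, 1.37 to 1.58) and Lamp2 502 against 201 CPM (1.32, 1.24 to 1.40). Cln3, lost in juvenile ceroid lipofuscinosis, had 0.96 and 1.38, and Scarb2, the receptor that carries glucocerebrosidase to lysosomes, 0.33 and 0.79. Mcoln1, the calcium channel TRPML1, had 58.7 against 61.5 CPM at 3 days and 64.2 against 64.3 CPM at 28 days. Of the regulators, Grn, which encodes progranulin, a secreted and lysosomal protein whose loss causes lysosomal disease, had 472 against 100 CPM and 592 against 61.1 CPM, ratios of 2.23 (2.10 to 2.36) and 3.28 (3.15 to 3.41). Tfeb had 68.9 against 24.1 CPM and 68.3 against 31.5 CPM, ratios of 1.52 (1.23 to 1.81) and 1.11 (0.90 to 1.33). Grn was thus close to the proteases, and Tfeb was nearly the same in the zones of both sections.

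The proton pump genes ran the other way, with 1 exception. Atp6v1b2, a subunit of the part that binds ATP, had 626 CPM in the zone and 1317 CPM in the mirror area at 3 days and 741 against 1193 CPM at 28 days, ratios of -1.07 (-1.14 to -1.01) and -0.69 (-0.73 to -0.64). Atp6v1a, the catalytic subunit, had 413 against 840 CPM and 485 against 624 CPM, ratios of -1.02 (-1.11 to -0.94) and -0.36 (-0.42 to -0.30). Atp6ap1, an accessory protein of the pump, had -0.37 (-0.44 to -0.29) and -0.10 (-0.16 to -0.04). All 3 were below the mirror area at both times, and less so at 28 days, except that Atp6ap1 was at 0.02 at 28 days with the mirror axis moved by 20 columns. Atp6v0d2, a subunit of the membrane part that is typical of osteoclasts and some macrophages, was nearly absent at 3 days, with 5 UMIs in the zone and 0 in the mirror area, which allows up to 0.437 CPM there. At 28 days it had 364 UMIs in the zone (47.0 CPM) and 3 in the mirror area, a log2 ratio of 6.87 (5.54 to 9.38), the largest of any member. Its whole injured side held 12 UMIs at 3 days and 374 at 28 days, so nearly all of the 28-day UMIs came from the zone. The 6 members whose promoters held TCACGTGA were Ctsd (2.42 and 4.08), Ctsa (1.29 and 2.00), Gla (1.03 and 1.35), Cln3 (0.96 and 1.38), Mcoln1 (-0.07 and 0.00) and Atp6v1a (-1.02 and -0.36). Their ratios thus ran from among the lowest of the members to among the highest.

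Between the sections, 32 of the 35 members measured at both times had a larger zone ratio at 28 days, against 48.2% of all genes, and the exceptions were Ctsk, Npc1 and Tfeb. The reference differed too, with 2643 CPM of the 33 members in the 3-day mirror area and 2345 CPM in the 28-day mirror area, where 2 of 34 members, Ctsc and Ctsh, were at least 2-fold lower at 28 days (6.99% of all genes). Comparing zone levels directly, 6 of 36 members were at least 2-fold higher at 28 days (5.87% of all genes) and 0 at least 2-fold lower (6.47% of all genes). The 6 were Ctss, Ctsh, Man2b1, Npc2, Gm2a and Atp6v0d2. Of these, Atp6v0d2 was nearly absent from the 3-day zone and met the minimum of UMIs only through the 28-day zone. On the opposite side outside the mirror area, 0 of 35 members were 2-fold higher (1.6% of all genes) or 2-fold lower (0.912% of all genes), and the 33 members had 2221 CPM at 3 days and 2308 CPM at 28 days. The zones were drawn at unlike cutoffs, as given above, and the tissue inside the zone was not the same at both times. At 3 days 282 of its 490 tiles carried white matter genes and 0 thalamic genes, and at 28 days 472 of 975 carried white matter genes and 205 thalamic genes. The mirror area differed in tissue too. At 3 days it had 86 thalamic, 0 striatal, 19 choroid plexus and 8 meningeal tiles, and at 28 days 356, 107, 11 and 2. The part of this in the ratios was not tested.

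Around the zone the pattern differed between the times. At 3 days the 33 members had 6165 CPM inside the zone, 4054 CPM within 250 µm of it, 3404 CPM at 250 to 500 µm, 2634 CPM at 500 to 1000 µm and 2515 CPM beyond, against 2221 CPM on the opposite side. The log2 ratios stepped from 1.47 in the zone through 0.87, 0.62 and 0.25 to 0.18 (0.16 to 0.19). At 28 days the levels were 9301, 2977, 2340, 2179 and 2327 CPM against 2308 CPM, and the ratios 2.01, 0.37, 0.02, -0.08 and 0.01. Beyond 250 µm the injured side at 28 days was thus close to the opposite side, whereas at 3 days every band was above it. Beyond 1000 µm at 3 days, however, the sum of all 36 was at 0.05 (0.04 to 0.06) and the median of all genes at 0.12. Outside zone and mirror area together, the 33 members had a ratio of 0.39 (0.38 to 0.40) at 3 days, and of 0.07 (0.05 to 0.08) at 28 days. The sum of all 36 was at 0.14 and 0.085 in this comparison, beside medians of 0.13 and 0.03 over all genes. There 2 of 35 members, Ctsc and Ctsh, were past 2-fold at 3 days (8.26% of all genes) and 0 of 35 at 28 days (1.36% of all genes). The phagocyte markers C1qa, C1qb, C1qc, Csf1r, Itgam, Ptprc and Spi1 summed to 483 CPM outside the zone against 251 CPM opposite at 3 days and to 306 against 228 CPM at 28 days, and their part in the result was not tested. The bands and the opposite side were also unlike in tissue. Neuronal markers stood at 4178 against 5710 CPM at 3 days and 4918 against 6094 CPM at 28 days, and fibroblast markers at 179 against 70.2 CPM and 85.7 against 52.0 CPM. On the whole injured side at 3 days 710 of 2588 tiles carried white matter genes and 133 choroid plexus genes, against 597 and 69 of 5231 tiles opposite, and the part of these differences was not tested. The proton pump genes Atp6v1b2, Atp6v1a and Atp6ap1 were below the opposite side within 250 µm at 3 days (-0.46) and close to it at 28 days (-0.07).

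**Figure D3:**
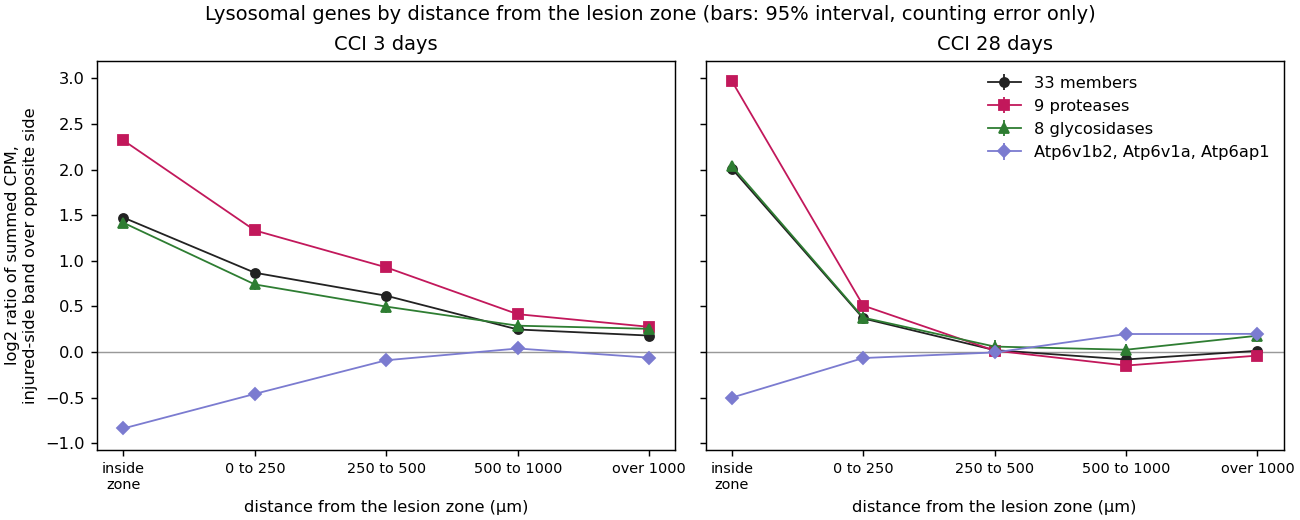
Log2 ratio of summed CPM in bands of the injured side at increasing distance in µm from the lesion zone over the opposite side outside the mirror area, at 3 days (left) and 28 days (right), for 33 members, proteases, glycosidases and the 3 proton pump genes with most UMIs, with bars for counting error that are mostly smaller than the symbols. At 3 days the 33 members step down from 1.47 to 0.18, whereas at 28 days they drop from 2.01 to 0.02 by the band of 250 to 500 µm.

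Region by region, tiles were assigned by marker genes, and a gene not used for the assignment was higher in its region than elsewhere in both sections for all but 1 of the 10 regions. In the region built on hippocampal CA genes, Wfs1 had 24.0 CPM against 75.01 CPM elsewhere at 28 days, so values for that region are left out. On the opposite side the members were uneven across regions. Choroid plexus tiles had the highest level of 14 of 35 members at both times (13.1% of all genes), among them Ctsd (395 CPM at 3 days and 363 CPM at 28 days), Lamp2 (788 and 760 CPM), Npc2 (258 and 302 CPM) and Psap (867 and 879 CPM). Meningeal tiles were highest for Ctsa, Ctsh, Ctsk, Hexa, Asah1 and Grn, with 78.1 and 87.2 CPM for Ctsh. White matter tiles were highest for Ctss, Npc1, Scarb2 and Tfeb, and Tfeb had 75.9 and 76.4 CPM there against 9.25 and 9.70 CPM in upper cortex. These genes are named because the same region led in both sections, so their agreement was fixed by that choice. For meninges and white matter the share of all genes was not computed, so no excess of members is read there. The leading region of other members changed, as for Gusb and Lamp1, highest in white matter at 3 days and in meninges at 28 days. Some leads were slim, such as that of Ctss at 28 days, with 142 CPM in white matter and 140 CPM in meninges. Mcoln1 had 76.7 CPM in dentate tiles and 38.9 CPM in choroid plexus at 3 days.

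Choroid plexus hardly differed between the sides in CPM. The 33 members had 5051 CPM against 4925 CPM opposite at 3 days, a ratio of 0.04 (-0.02 to 0.09), and a ratio of 0.07 (0.02 to 0.13) at 28 days. Per bin, however, the sum of all 36 was higher on the injured side, at 0.51 and 0.30. Hypothalamic tiles had a ratio of 0.09 at 3 days and of -0.08 at 28 days. In upper cortex outside the zone the 33 members had 2795 CPM against 1975 CPM at 3 days, a ratio of 0.50 (0.46 to 0.54), and deep cortex had 0.43 (0.39 to 0.47). At 28 days the same ratios were 0.04 and 0.06, so cortex outside the zone differed between the sides in the 3-day section and barely in the 28-day section. The sides held unlike extents of cortex, above all at 3 days. Upper cortex had 114 tiles on the injured side and 955 opposite at 3 days, and 283 and 348 at 28 days. Deep cortex had 138 and 785 tiles, then 231 and 475. The part of this difference in extent was not tested. Over whole regions the phagocyte markers were at 738 against 204 CPM in upper cortex and 717 against 190 CPM in deep cortex at 3 days, and at 325 against 176 CPM and 579 against 157 CPM at 28 days. Neuronal markers in deep cortex were at 5691 against 7473 CPM and 6537 against 8590 CPM, and the part of either list was not tested. Ctss in upper cortex outside the zone had 85.9 against 35.2 CPM at 3 days (1.29, 1.05 to 1.52) and 60.7 against 37.5 CPM at 28 days (0.69, 0.47 to 0.92), so the sides of this gene differed at both times. Tiles with striatal genes had the largest ratio outside the zone at 3 days among the regions described here, 3742 against 2077 CPM (0.85, 0.79 to 0.90). Over all tiles with striatal genes, phagocyte markers were at 1240 CPM on the injured side and 293 CPM opposite, and neuronal markers at 2190 and 3657 CPM. The part of either list was not tested. Inside the zone 84 tiles carried striatal genes at 3 days, against 0 mirror tiles. An injured-side tile with striatal genes thus need not have been striatum before the injury. At 28 days the striatal ratio outside the zone was 0.10.

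In white matter the ratios in CPM were larger inside the zone than outside it. The split takes tiles rich in phagocyte genes from the injured side only, which by itself places the ratio outside lower. Over all white matter tiles 1 of 34 members was past 2-fold at 3 days (3.55% of all genes) and 17 of 35 at 28 days (8.89% of all genes). Phagocyte markers there were at 1171 against 850 CPM at 3 days and 4364 against 606 CPM at 28 days, and neuronal markers at 2642 against 2536 CPM and 1643 against 3207 CPM, and their part was not tested. Per bin the sum of all 36 members was at 0.98 at 3 days, against 0.27 in CPM. At 3 days white matter tiles inside the zone had 6346 CPM of the 33 members against 3464 CPM on the opposite side, a ratio of 0.87 (0.84 to 0.91), with 9 of 34 members past 2-fold (10.1% of all genes). Outside the zone the ratio was -0.08 (-0.11 to -0.04), with 0 of 34 past 2-fold (1.21% of all genes). The sign there turned with the members summed, to 0.08 (0.05 to 0.11) for all 36, with the 3 proton pump genes at 0.36 (0.31 to 0.41). At 28 days the tiles inside the zone had 10298 CPM against 3230 CPM, a ratio of 1.67, with 20 of 35 members past 2-fold (10% of all genes). Outside it the ratio was 0.06 (-0.01 to 0.14), with 0 of 34 past 2-fold (2.7% of all genes). Comparing white matter with white matter changed some members more than others. Ctsd kept ratios of 2.14 (1.99 to 2.28) and 3.45 (3.31 to 3.60) and Grn 1.82 and 2.88, while Npc1 had 184 against 187 CPM at 3 days and 161 against 165 CPM at 28 days, ratios of -0.03 and -0.04. Tfeb had 80.2 against 75.9 CPM (0.08, -0.21 to 0.37) and 94.3 against 76.4 CPM (0.30, 0.04 to 0.57). The zone ratios of Npc1 and Tfeb given above were thus not seen, or were smaller, when both areas were white matter. Tiles inside the zone were assigned by levels measured in the injured tissue itself, so a tile with white matter genes need not have been a fibre tract before the injury.

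In the thalamus the sections differed in CPM, and the sides held unlike extents of it, above all at 3 days. Thalamus had 269 tiles on the injured side and 744 opposite at 3 days, and 464 and 652 at 28 days. The part of this difference in extent was not tested. At 3 days the 33 members had 2264 CPM, against 2084 CPM opposite, a ratio of 0.12 (0.09 to 0.15), with 0 of 34 members past 2-fold (2.43% of all genes). At 28 days it had 3767 against 2120 CPM, a ratio of 0.83 (0.80 to 0.86), with 13 of 35 past 2-fold (4.78% of all genes). The order of the sections turned when UMIs per bin were counted, since the sum of all 36 members was then at 0.50 at 3 days and 0.17 at 28 days, against 0.08 and 0.41 in CPM. The 205 thalamic tiles inside the zone had a ratio of 1.59 with 20 of 35 past 2-fold (8.53% of all genes). Those outside had 0.05 with 1 of 34, Ctsc, past 2-fold (1.58% of all genes). As in white matter, the zone was cut from the injured side only, which by itself places the ratio outside lower. Inside the zone Ctss had 533 CPM against 34.6 CPM, Ctsd 830 against 64.3 CPM and Grn 497 against 61.7 CPM, log2 ratios of 3.94 (3.74 to 4.15), 3.69 (3.54 to 3.84) and 3.01 (2.84 to 3.18). Atp6v1b2 had 996 against 1301 CPM there, a ratio of -0.39. In thalamic tiles the phagocyte markers summed to 316 CPM against 191 CPM opposite at 3 days and to 1376 and 167 CPM at 28 days. Neuronal markers there summed to 5240 against 5814 CPM and to 4940 against 6073 CPM, and the part of either list in the result was not tested. Slc17a6, the vesicular glutamate transporter of thalamic neurons and the gene that checked the region, was at 466 and 426 CPM in thalamic tiles of both sides together against 68.5 and 57.5 CPM elsewhere.

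**Figure D4:**
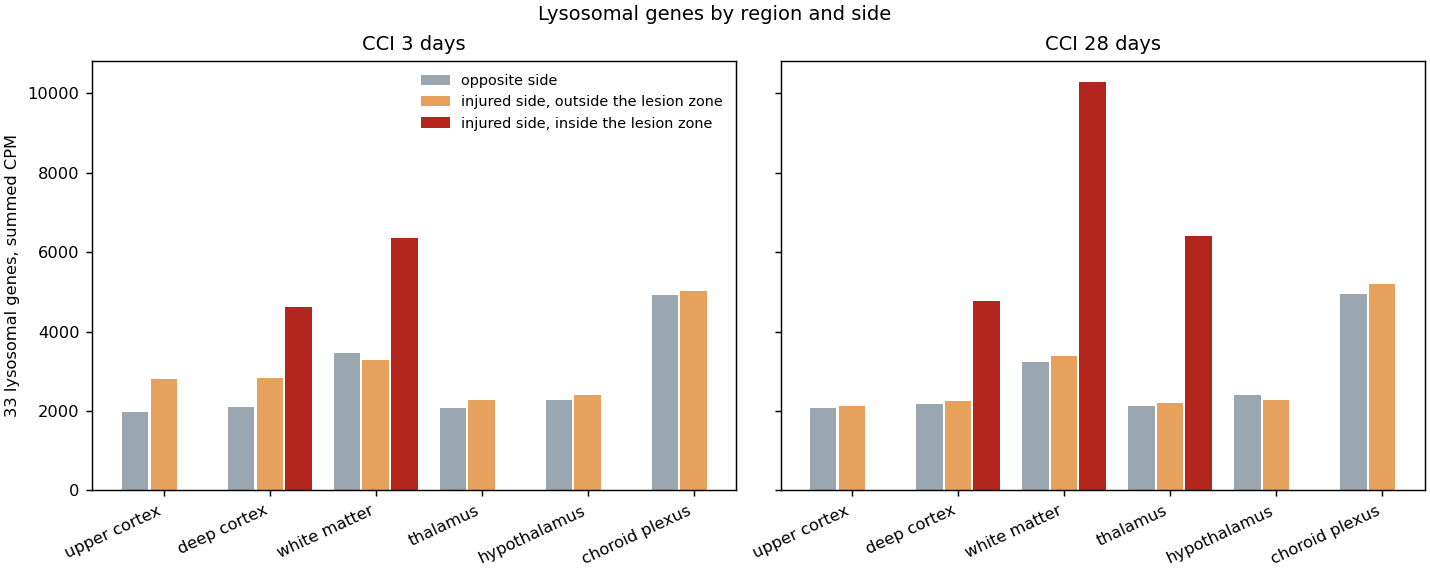
Summed CPM of the 33 lysosomal genes in 6 regions at 3 days (left) and 28 days (right), on the opposite side (grey), on the injured side outside the lesion zone (orange) and inside it (red, drawn where the zone held enough tissue of that region). Choroid plexus is about equally high on both sides, thalamus has a red bar only at 28 days, and cortex outside the zone is above the opposite side at 3 days and level with it at 28 days.

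Cell markers also differed between the zone and the mirror area, in both directions. The 7 phagocyte markers, all detected, summed to 1934 CPM in the zone and 490 CPM in the mirror area at 3 days and to 4160 and 239 CPM at 28 days. The homeostatic microglia markers P2ry12, Tmem119, Sall1 and Siglech stood at 186 and 85.4 CPM and then at 172 and 76.3 CPM. At 3 days the interval of Siglech included 0 (0.06, -0.50 to 0.58), whereas P2ry12, Tmem119 and Sall1 had log2 ratios of 0.99, 1.22 and 1.36. Markers of infiltrating macrophages (Ccr2, Ms4a7, Arg1, Msr1 and Chil3) stood at 243 and 3.94 CPM at 3 days and at 59.0 and 2.18 CPM at 28 days. They did not run together, since Arg1 had 111 CPM in the zone at 3 days and 0.516 CPM at 28 days, whereas Ms4a7 had 13.5 and 31.8 CPM. At 28 days the intervals of Arg1 (0.53, -1.98 to 3.36) and Chil3 (0.41, -1.54 to 2.49) against the mirror area included 0. Neuronal markers (Rbfox3, Snap25, Syt1, Stmn2 and Nefl) were lower in the zone, with 1446 against 6161 CPM and 2475 against 6006 CPM. Astrocyte markers (Aqp4, Slc1a3, Slc1a2, Gja1 and Aldoc) stood at 2464 against 3210 CPM and 7237 against 4190 CPM. At 3 days the sum hid a split, since Aqp4, Slc1a3 and Gja1 were higher in the zone (log2 ratios of 0.66, 1.16 and 0.50), and Slc1a2 and Aldoc, which held most UMIs of the list, were lower (-0.82 and -1.05). Of the oligodendrocyte markers, Mog, Mag, Mobp and Cldn11 had log2 ratios of 1.80, 1.99, 1.70 and 2.30 at 3 days and of 0.10, 0.21, -0.05 and 0.56 at 28 days. Endothelial markers (Cldn5, Pecam1, Cdh5 and Flt1) stood at 396 against 115 CPM and 239 against 172 CPM, and fibroblast markers (Dcn, Lum, Col1a1 and Col1a2) at 392 against 57.9 CPM and 272 against 38.5 CPM. For each UMI of the phagocyte list there were 3.19 UMIs of the 33 members in the zone and 5.39 in the mirror area at 3 days, and 2.24 and 9.80 at 28 days, so the phagocyte list was raised more than the members were. Their part in the members' ratios was not tested.

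Across tiles of the zone, the members differed in the cell list with which they correlated best. The lists were of unlike depth. In the 28-day zone the phagocyte list held 32223 UMIs, the homeostatic microglia list 1334 and the infiltrating macrophage list 457. Counting noise holds down rho with a sparse list, so which of these lists came first also depends on depth. Spearman's rho is given as a description, since tiles share a library and their neighbours, and only members with at least 1 UMI per tile were read, beside all genes at that level other than those of the cell lists. At 28 days, over 938 tiles, 16 of 22 such members correlated best with the phagocyte list (15.8% of all genes), in a zone that was itself drawn from genes of phagocytes, led by Ctsd (rho 0.81), Ctss (0.77), Ctsb (0.74) and Grn (0.71). Of the 22, only Atp6v1b2 (0.58), Atp6v1a (0.37) and Atp6ap1 (0.12) correlated best with the neuronal list (51.8% of all genes). Npc1 (0.15) and Scarb2 (0.12) did so with the oligodendrocyte list (10.3% of all genes). At 3 days, over 456 tiles, 9 of 19 members were closest to the phagocyte list (5.57% of all genes), with Grn at 0.57, Ctsd at 0.53 and Gusb at 0.51, and Ctsb was closest to the infiltrating macrophage list (0.48). The same 3 proton pump genes were again closest to the neuronal list (25.7% of all genes), with 0.60 for Atp6v1b2. On the opposite side, over 5069 tiles at 3 days and 3416 at 28 days, 4 of 17 and 1 of 13 members were closest to the phagocyte list (1.96% and 0.997% of all genes) and 7 at each time to the neuronal list (75.7% and 77.6% of all genes), Ctsb among them at 28 days. There Atp6v1b2 had rho of 0.57 and 0.63 with neurons, whereas Ctsd had 0.22 and 0.16 with phagocytes. Levels per tile are sparse, and weak values among these carry little.

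**Figure D5:**
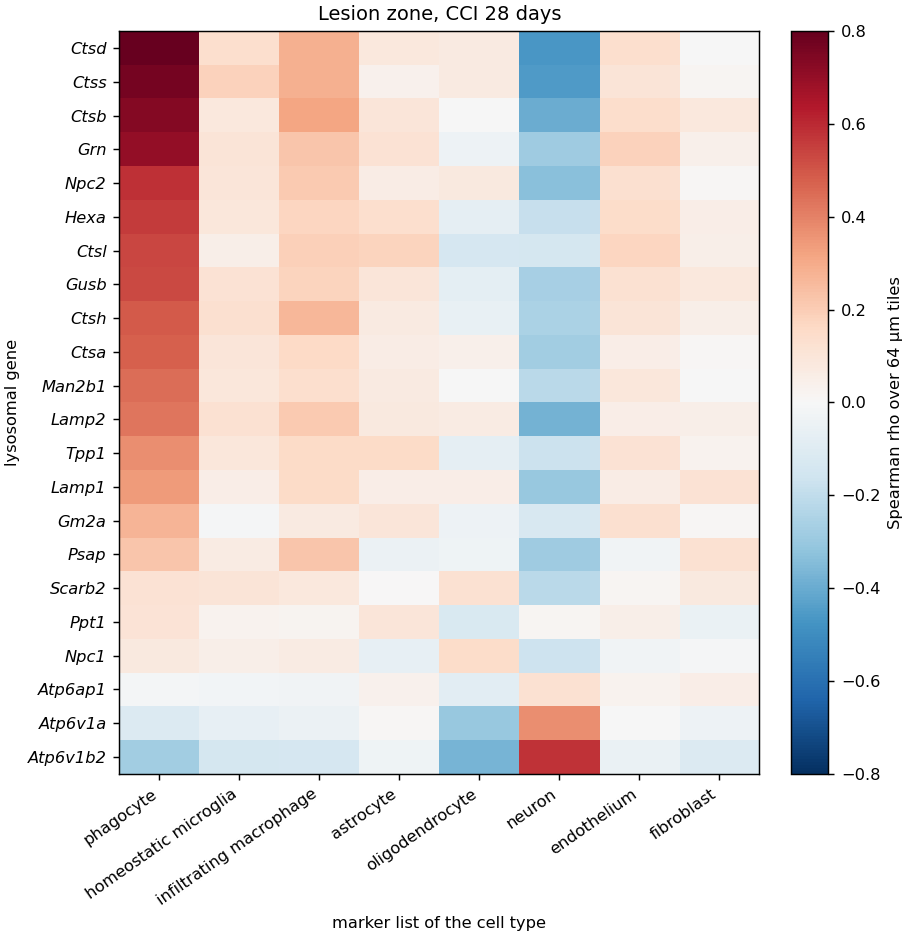
Spearman's rho over 938 tiles of the lesion zone at 28 days between the CPM of each of 22 lysosomal genes (vertical axis, in order of their rho with phagocytes) and the summed CPM of 8 cell marker lists (horizontal axis), from blue (negative) to red (positive). Ctsd, Ctss, Ctsb and Grn are dark red for phagocytes and blue for neurons, and Atp6v1b2 and Atp6v1a are red for neurons and blue for phagocytes.

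A wider set of 62 other lysosomal genes was read in the same way. In the zone at 3 days 14 of 59 measured, or 23.7%, were at least 2-fold higher (17.7% of all genes) and 2 were lower (11% of all genes). At 28 days 22 of 61, or 36.1%, were higher (15.9% of all genes) and 0 lower (6.61% of all genes). Their medians were 0.45 and 0.59, beside 0.10 and 0.00 over all genes. The 3 highest and 3 lowest among genes with at least 200 UMIs over zone and mirror area are given here. Lyz2, Cd68 and Slc11a1 met that minimum only through the zone. A gene of phagocytes is also placed high in a zone drawn from such genes. Lyz2, the lysozyme of phagocytes, had 300 CPM against 13.3 CPM at 3 days and 951 against 5.73 CPM at 28 days, ratios of 4.49 (4.19 to 4.82) and 7.36 (6.97 to 7.81). Cd68, a phagocyte relative of the LAMP proteins, had 3.34 and 5.07, Ctsz, a carboxypeptidase, had 2.24 at 3 days, and Slc11a1, a metal exporter of phagosomes, had 5.19 at 28 days. The lowest were Atp6v0a1 (-1.02 and -0.74) and Atp6ap2 (-1.002 and -0.69), further parts of the proton pump, with Sort1, a sorting receptor, at 3 days (-0.99) and Atp6v1d, another pump subunit, at 28 days (-0.64). Not all pump genes were low, since Atp6v0e, chosen after its values were seen, was at 1.08 and 1.33, and Atp6v1g1, chosen likewise, at 0.41 and 0.29.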

How the data were processed

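The 2 sections were measured with the Visium HD assay for paraffin-embedded tissue and deposited as raw UMI counts per gene and 16 µm bin. Per the file headers the authors made these counts with Space Ranger 4.0.1, and the submitters' processing notes name the build mm10. The deposited counts were not normalized, and the UMIs of a gene also depend on its probes, so a gene's share of summed UMIs is a share of counts and not of transcripts. The members, lists and areas were chosen with earlier results of these data known. Bins with fewer than 100 UMIs (1.93% and 2.15%) were left out. The injured side was columns below 130 at 3 days and below 240 at 28 days, which equal the median columns of the thalamic gene Gbx2. Bins were summed in tiles of 4 by 4 aligned to the border. The lesion zone was smoothed over 5 by 5 tiles and kept in connected patches of at least 25 tiles. Regions were given to tiles by the highest mean z-score of their genes, smoothed over 3 by 3 tiles, if at least 0.5. UMIs were summed over areas and compared as log2 ratios of CPM with a pseudocount of 0.5 UMIs and exact conditional binomial 95% intervals, which cover counting error only. Genes with at least 20 UMIs over both areas entered medians and counts. The 36 members could all be named, and of the other lysosomal genes the 3 highest and 3 lowest with at least 200 UMIs. The functions were tested on simulated data with 200 changed genes. Alternatives were TMM factors (edgeR 4.0.16 in R 4.3.3), UMIs per bin, other filters, zones, reference areas, axes and region thresholds, and 4 alternatives for regions and distances were chosen after seeing the data. Python 3.11.15, numpy, pandas, scipy and matplotlib were used. 1 marker gene of the oligodendrocyte list is not reported here.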

Additional observations from a re-analysis of the deposited data

Results flagged for a closer look

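On whole sides Atp6ap1 was lower on the injured side at 3 days, with a log2 ratio of -0.0889, and higher at 28 days, with 0.108, and neither interval included 0. It was singled out because the sections moved in opposite directions. The difference was not tested, since each time point had 1 section.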

How the results depend on the processing

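No paired analysis was possible because each group had 1 section. Only counting error could be computed, and the spread between animals was not measured. Depth limits Ctsk and, at 3 days, Atp6v0d2. For single members the direction in the zone was the same in 368 of 384 alternative values at 3 days and 388 of 396 at 28 days, and members at least 2-fold higher were still higher in 189 of 189 and 250 of 250 without the values per bin. These counts include a mirror axis set through Gbx2. Its values repeat the main ones, since the border equals the median column of Gbx2 in both sections, so their agreement was fixed beforehand. The median member ranged from 0.24 to 1.18 at 3 days and from 1.14 to 1.49 at 28 days, and the number past 2-fold from 7 to 20 and from 23 to 25. The median of 0.24 and the count of 7 were the values from UMIs per bin. The cause of the changes that follow was not tested, except that leaving out Atp6v1b2, Atp6v1a and Atp6ap1 removes the members with most UMIs by construction.

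All values that follow are log2 ratios of summed members. For the sides at 3 days (0.19) TMM factors gave 0.0529, UMIs per bin 0.0876, an opposite side of equal width 0.16, a border moved by 20 columns to either side 0.21 or 0.16, the sum without these 3 members 0.52 and leaving out the zone 0.14. At 28 days (0.40) TMM factors gave 0.37, UMIs per bin 0.24, the moved borders 0.44 and 0.36, the sum without the 3 members 0.74 and leaving out the zone 0.0850. For the zone at 3 days (0.50) UMIs per bin reversed the sign to -0.29, and TMM factors gave 0.41, a 95th percentile 0.34, zones from phagocyte or glial genes 0.44 or 0.33, the whole opposite side 0.62, bins over tissue in both 0.47, a mirror axis moved by 20 columns 0.64 and the sum without the 3 members 1.22. At 28 days (1.22) UMIs per bin gave 0.93, the 95th percentile 1.01, the phagocyte and glial zones 1.27 and 1.28, the whole opposite side 1.202, bins over tissue in both 1.16, the moved axis 1.25 and the sum without the 3 members 1.99.

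In white matter (0.27 at 3 days and 1.08 at 28 days) a region threshold of 1 gave 0.34 and 0.997, leaving out the zone 0.0813 and 0.0569, and the sum without the 3 members 0.33 and 1.504, with 0.98 per bin at 3 days. In the thalamus (0.08 and 0.41) UMIs per bin gave 0.50 and 0.17, the sum without the 3 members 0.12 and 0.83, and at 28 days the threshold of 1 gave 0.34 and leaving out the zone 0.0724. In upper cortex (0.27 and 0.13) UMIs per bin gave 0.14 and 0.0435 and the sum without the 3 members 0.56 and 0.0559. In deep cortex (0.24 and 0.14) leaving out the zone gave 0.21 and 0.0699, the sum without the 3 members 0.52 and 0.28, and UMIs per bin reversed the sign to -0.10 at 28 days. In choroid plexus (0.03 and 0.08) UMIs per bin gave 0.51 and 0.30. Within 250 µm of the zone (0.29 and 0.16) a zone from glial genes gave 0.35 and 0.21, the sum without the 3 members 0.87 and 0.37, and the 95th percentile 0.10 at 28 days. The alternatives without the 3 members for regions and for distance, and the glial zone and 95th percentile for distance, were chosen after seeing the data.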
